A study of Mus musculus with 2 samples.

Results

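The genes followed here, 10 genes of resident myeloid and antigen-presenting cells in RNA-seq libraries of mouse tongue epithelium, are Lyz2, Csf1r, Cd74, H2-Aa, H2-Ab1, Tyrobp, Fcer1g, Cd207, Ptprc and Cd52. The count table holds 23394 genes in all. They were selected on their read counts in these same pools, some of which had shown reads of such genes, so their levels across the pools are described here without a test. The mice were C57BL/6 animals of the line Pkd2l1-tdTomato, in which the promoter of Pkd2l1, a channel gene of sour (type III) taste cells, marks cells with a red fluorescent protein. Cells freed from the tongue epithelium were separated by flow cytometry into tdTomato+ cells, which are the sour taste receptor cells, and tdTomato- cells, which are other taste receptor cells and supporting cells. Libraries were made with a SMART-Seq kit from pools of 50 to 100 cells or from single tdTomato+ cells, with no treatment, age or sex stated and no statement of which animals gave which pool. The table held both sour pools of the labels (replicates 1 and 2) and 4 of their 10 control pools (replicates 1, 2, 4 and 6), beside 56 single sour cells. All libraries carry the reporter line's background, and none was sorted with an antibody for or against leukocytes.

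Macrophages and dendritic cells live in most epithelia and in the connective tissue below them. Langerhans cells are the antigen-presenting cells of stratified epithelium, including that of the mouth, and carry the lectin langerin, the product of Cd207. Cells of both kinds load peptides onto MHC class II molecules, which pair an alpha chain (H2-Aa) with a beta chain (H2-Ab1) and are guided through the cell by the invariant chain (Cd74). Lyz2 encodes lysozyme M of macrophages and neutrophils, and Csf1r encodes the receptor for the growth factors CSF-1 and IL-34 on which macrophages and Langerhans cells depend. Tyrobp and Fcer1g encode adaptor proteins that carry the activating signal (ITAM) of myeloid receptors, Ptprc encodes the leukocyte phosphatase CD45, and Cd52 encodes a small surface glycoprotein of leukocytes.

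The class II genes share a promoter block read by the RFX and NF-Y factors and the co-activator CIITA, and 3 of these promoters are shown because H2-Aa, H2-Eb1 and H2-DMb1 were read together in the same control pool below. Each sequence is the 150 bases before the gene's start on its own strand, from RefSeq on GRCm38.p6, with capitals marking the searched motif GATTGG on either strand, the reverse complement of the CCAAT box that NF-Y binds.
H2-Aa (chr17:34287824-34287973, minus strand): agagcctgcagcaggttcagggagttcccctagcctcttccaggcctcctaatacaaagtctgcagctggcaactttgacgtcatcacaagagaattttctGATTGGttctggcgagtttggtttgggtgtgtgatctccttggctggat
H2-Eb1 (chr17:34305717-34305866, plus strand): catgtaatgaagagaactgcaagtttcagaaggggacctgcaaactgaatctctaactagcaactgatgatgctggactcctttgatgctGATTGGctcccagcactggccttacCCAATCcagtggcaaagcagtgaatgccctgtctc
H2-DMb1 (chr17:34153041-34153190, plus strand): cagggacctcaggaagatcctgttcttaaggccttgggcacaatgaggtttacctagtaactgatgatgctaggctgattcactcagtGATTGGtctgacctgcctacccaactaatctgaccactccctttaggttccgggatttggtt
The H2-Aa window held GATTGG once, with its first base at -49. H2-Eb1 held it at -60 and on the other strand at -35, and H2-DMb1 held it at -62. Over the same 150 bases, GATTGG was in 3595 of 32851 mouse promoters (10.9%). Promoter entries were found for 5 of the 10 genes, and a match of letters is a description and not a bound site.

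The sour pools held 403166 and 188503 reads on genes and the control pools 343757 to 680954, on 10288 to 11729 genes each. Levels are given in counts per 1000000 gene reads (CPM), for which 3 reads correspond to 4.41 CPM in the deepest and 15.9 CPM in the shallowest pool. The sort held at the level of its defining genes: the 9 type III taste cell genes summed to 13936 and 20347 CPM in the sour pools and to 2.94 to 26.2 CPM in the control pools. The 8 keratinocyte and basal cell genes summed to 1640 and 2276 CPM in the sour pools and to 73237 to 95248 CPM in the control pools. Sour pool 1 and control pools 1 and 2 came from plate 1, control pool 4 from plate 2, and sour pool 2 and control pool 6 from plate 3. In a pool, fewer cells of a type and less RNA per cell cannot be told apart.

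Reads of the 10 genes were concentrated in 2 pools. Sour pool 1 had reads of 8 of them, summing to 4155 CPM, and control pool 2 had reads of 8, summing to 1677 CPM. The others carried far less: 5.30 CPM in sour pool 2, 54.3 CPM in control pool 1, 120 CPM in control pool 4 and 105 CPM in control pool 6. Sour pool 1 was the highest pool for 5 of the genes, though by counts within counting error of another pool for Tyrobp, Fcer1g and Cd52. Control pool 2 was the highest for 4. The remaining gene, Ptprc, had at most 2 reads in a pool. The composition of the pair differed: in sour pool 1 Lyz2 alone gave 92% of the reads of the 10 genes, while in control pool 2 the largest share, 42.1%, was that of Cd74.

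**Figure D1:**
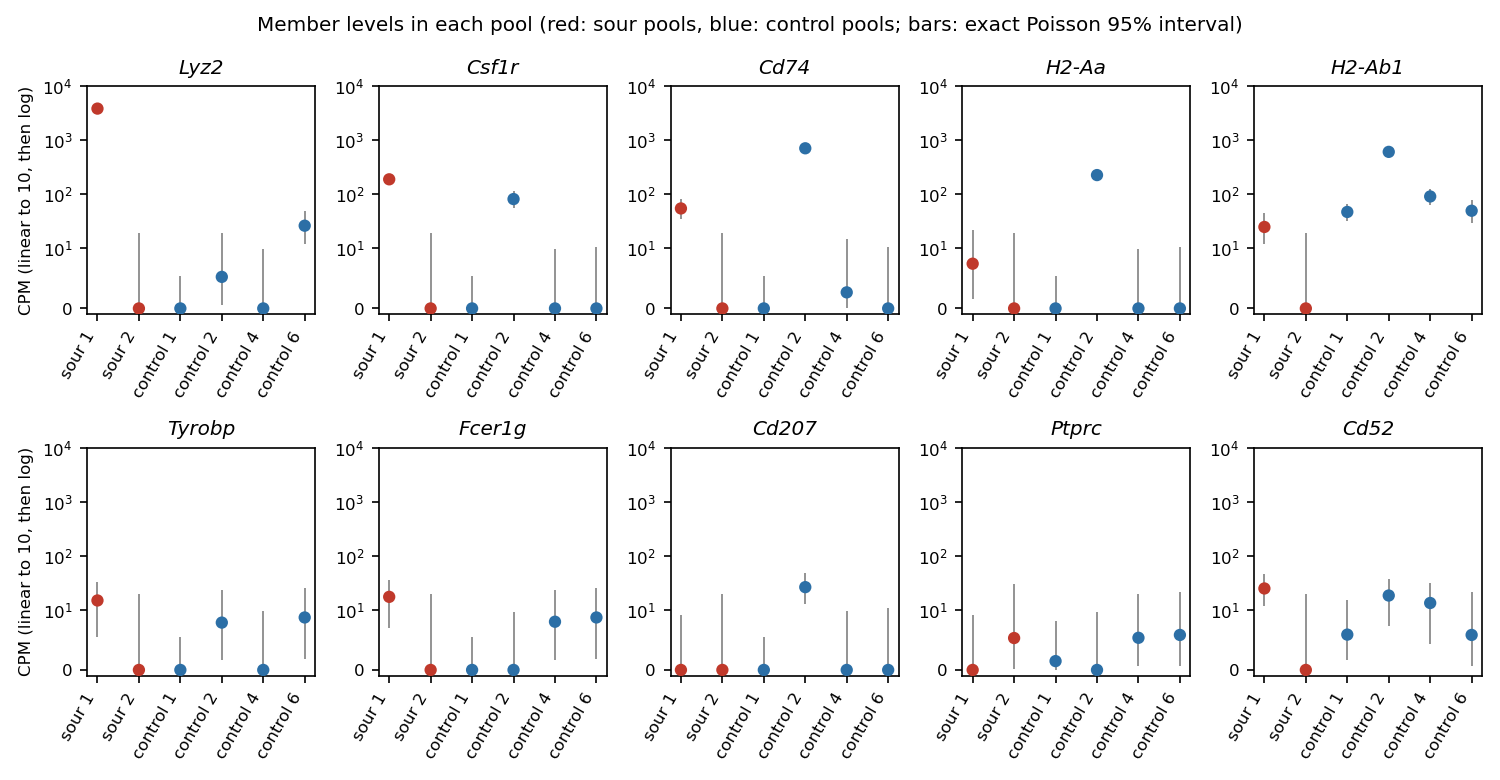
CPM (vertical axis, linear up to 10 and logarithmic above) of each of the 10 genes in the 2 sour pools (red) and the 4 control pools (blue), with exact Poisson 95% intervals as bars. Lyz2, at 3822 CPM, stands alone in sour pool 1, while Cd74, H2-Aa, H2-Ab1 and Cd207 are highest in control pool 2.

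Lyz2 (ENSMUSG00000069516.8; chromosome 10, 117277331 to 117282321, minus strand, GRCm38) had 1541 reads in sour pool 1, or 3822 CPM with an exact Poisson 95% interval of 3634 to 4018. It had no read in sour pool 2 and in control pools 1 and 4, 2 reads in control pool 2 and 9 reads, 26.2 CPM, in control pool 6. One sour pool was therefore high and the other at 0, and the groups overlapped (1911 ± 2703 CPM in sour pools, SD, n = 2, and 7.86 ± 12.5 CPM in control pools, n = 4). Sour pool 1 lay 146-fold above control pool 6, the next highest, with an interval of 76.7 to 320 that covers the counting error of these libraries only. The near-identical paralog Lyz1, with which reads may be shared, had 1 read over all pools, in control pool 4.

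Csf1r (chromosome 18, 61100598 to 61132149, plus strand) was read in the 2 leading pools only, with 76 reads (189 CPM) in sour pool 1 and 31 reads (81.4 CPM) in control pool 2. The other 4 pools had none. Sour pool 1 was 2.32-fold above control pool 2 (1.51 to 3.64). Relative to Csf1r, Lyz2 was thus far higher in sour pool 1 than in control pool 2, where it had 2 reads.

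The class II pair and the invariant chain had the opposite order. Cd74 (chromosome 18, 60803848 to 60812652, plus strand) had 269 reads (706 CPM) in control pool 2, 22 reads (54.6 CPM) in sour pool 1 and 1 read in control pool 4, with none in the remaining 3 pools. Control pool 2 was 12.9-fold above sour pool 1 (8.37 to 20.99). H2-Aa (chromosome 17, 34282744 to 34287823, minus strand), whose promoter is printed above, had 86 reads (226 CPM) in control pool 2 and 3 reads in sour pool 1, a ratio of 30.3 (10.04 to 150), and no read elsewhere. Both genes thus marked 1 control pool out of 4, and for both the groups overlapped.

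H2-Ab1 (chromosome 17, 34257689 to 34269419, plus strand) was the member read most widely. It had 10 reads (24.8 CPM) in sour pool 1, none in sour pool 2, and 32, 231, 34 and 17 reads in control pools 1, 2, 4 and 6, or 46.99, 606, 90.9 and 49.5 CPM. All 4 control pools lay above both sour pools, so the groups did not overlap. The Poisson interval of sour pool 1 (11.9 to 45.6 CPM) nevertheless reached into those of control pool 1 (32.1 to 66.3) and control pool 6 (28.8 to 79.2). How many of all genes separate the groups in this way was not counted. By edgeR calls, another measure, 29.3% of all 7739 genes that could be tested differed in either direction and 14.4% were lower in sour pools. A difference between the groups is thus common here, and the order of the pools for H2-Ab1 is a description. Control pool 2 was 6.67-fold (4.64 to 9.87) above control pool 4, and 24.4-fold (13.1 to 51.6) above sour pool 1. In control pools 1, 4 and 6, H2-Ab1 was read with no more than 1 read of Cd74 and none of H2-Aa.

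The ITAM adaptors were low throughout. Tyrobp (chromosome 7, 30413760 to 30417585, plus strand) had 6 reads in sour pool 1 and 3 each in control pools 2 and 6. Fcer1g (chromosome 1, 171229572 to 171234365, minus strand) had 7 reads in sour pool 1 and 3 each in control pools 4 and 6. At 14.9 and 17.4 CPM in sour pool 1 against at most 8.73 CPM elsewhere, their Poisson intervals overlapped between pools, so an order of the pools was not detectable at this depth.

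Cd207 (chromosome 6, 83671215 to 83677857, minus strand) had 10 reads, all in control pool 2 (26.2 CPM, interval 12.6 to 48.3). The 5 other pools had none, where 3 reads would have been 4.41 to 15.9 CPM. Of the 2 leukocyte-wide genes, Cd52 (chromosome 4, 134082448 to 134095082, minus strand) had 10 reads in sour pool 1 and 4, 7, 5 and 2 reads in control pools 1, 2, 4 and 6. Ptprc (chromosome 1, 138062861 to 138175708, minus strand) never exceeded 2 reads in a pool and had none in either leading pool, where 3 reads would have been 7.44 and 7.87 CPM. Cd52 had its highest levels in the same pair of pools, at 24.8 and 18.4 CPM, but their Poisson intervals overlapped those of control pools 1, 4 and 6.

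Per length of exon, so that genes can be compared within a pool, the order in sour pool 1 was Lyz2 (2904 reads per kilobase of exon and 1000000 gene reads, RPKM), then Csf1r at 32.6 and Cd74 at 32.5, Tyrobp at 22.3, Cd52 at 20.9, Fcer1g at 19.9, H2-Ab1 at 9.66 and H2-Aa at 1.96 RPKM. The middle of that order, from Csf1r to Fcer1g, rests on 6 to 76 reads per gene and its neighbours are not separated by counting error. In control pool 2 the order was Cd74 (420 RPKM), H2-Ab1 (236), H2-Aa (59.4), Cd207 (17.2), Cd52 (15.5), Csf1r (14.1), Tyrobp (11.8) and Lyz2 (3.99 RPKM). Only Cd74, H2-Ab1 and H2-Aa stood clear of the rest there.

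Some other genes of these cell types had their reads in the same pools. Of 26 further macrophage and monocyte genes, 14 had a read in sour pool 1, 7 in control pool 2, 4 in each other control pool and 1 in sour pool 2. Of all 23394 genes, 11729 had a read in sour pool 1, 10894 in control pool 2 and 10325 in sour pool 2. The count in sour pool 1 is thus near the share of all genes, and that in control pool 2 is below it. Other genes did not follow these pools: the dendritic cell gene Xcr1 had 7 reads in control pool 4 and Il1b 22 in control pool 6, with none in other pools. Sour pool 1 had reads of all 3 chains of complement C1q (C1qa 12, C1qb 34 and C1qc 25 reads), of Adgre1, which encodes F4/80 and is listed under its older symbol Emr1 (14), of the mannose receptor Mrc1 (18), of F13a1 (44), of the NADPH oxidase subunit Cybb (11) and of the platelet factor Pf4 (10). C1qa, C1qc, Mrc1, F13a1, Cybb and Pf4 had no read in any other pool or in any of the single cells. Not all defining genes were present: Itgam, Cx3cr1, Fcgr1, Ms4a7, Cd163, Msr1 and Ccr2 had no read in any pool. Summed over the list, sour pools had 5.30 and 1496 CPM and control pools 1347 to 2427 CPM, most of it from Apoe, a lipid carrier made by many cell types, with 403 reads in sour pool 1, 1 in sour pool 2 and 409 to 1162 in control pools.

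Over the whole table, 42 genes had at least 5 reads in sour pool 1 and none in the other 61 taste libraries. Of these, 10 were on the leukocyte lists, while all lists beside the 10 members together held 183 of the 23394 genes. The most abundant were Retnla (84 reads), F13a1 (44) and Mgl2 (28), of which Retnla and Mgl2 are known from alternatively activated macrophages. These were singled out after their values were seen. Pigr (22 reads), Cxcl17 (18) and Muc13 (14), which are not on the leukocyte lists, were also among the 10 most abundant. Sour pool 2 had 0 such genes. In that pool, the shallowest, 5 reads were 26.5 CPM, beside 12.4 CPM in sour pool 1 and 7.34 CPM in control pool 1. The counts of the pools are therefore not at 1 common level. Control pool 2 had 8, and 4 of these were leukocyte genes: Cd207, the integrin Itgax (CD11c; 6 reads), H2-DMb1 (5), which helps to load class II molecules, and the myeloid transcription factor Spi1 (5, under its older symbol Sfpi1). Control pool 1 had 18, of which 1 was on the leukocyte lists. Control pool 4 had 17, 3 of them on the lists, with the T cell and NK cell genes Cxcr6 (9) and Cd69 (8) in the lead, and control pool 6 had 15, 1 of them on the lists, with the histamine-forming enzyme Hdc (24) in the lead.

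Other transcripts were also high in sour pool 1. Ltf, which encodes lactoferrin of neutrophils and of glandular epithelium, had 1864 reads (4623 CPM) there against at most 22.03 CPM in the other pools. Msln had 1362 CPM against at most 96.9, and the secretory gene Dmbt1 had 499 CPM against 0. None of the genes S100a8, S100a9, Mpo and Elane of the neutrophil list had a read in sour pool 1, and Csf3r had 11. The part of glandular or neutrophil RNA in the Lyz2 count of that pool was not tested.

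**Figure D2:**
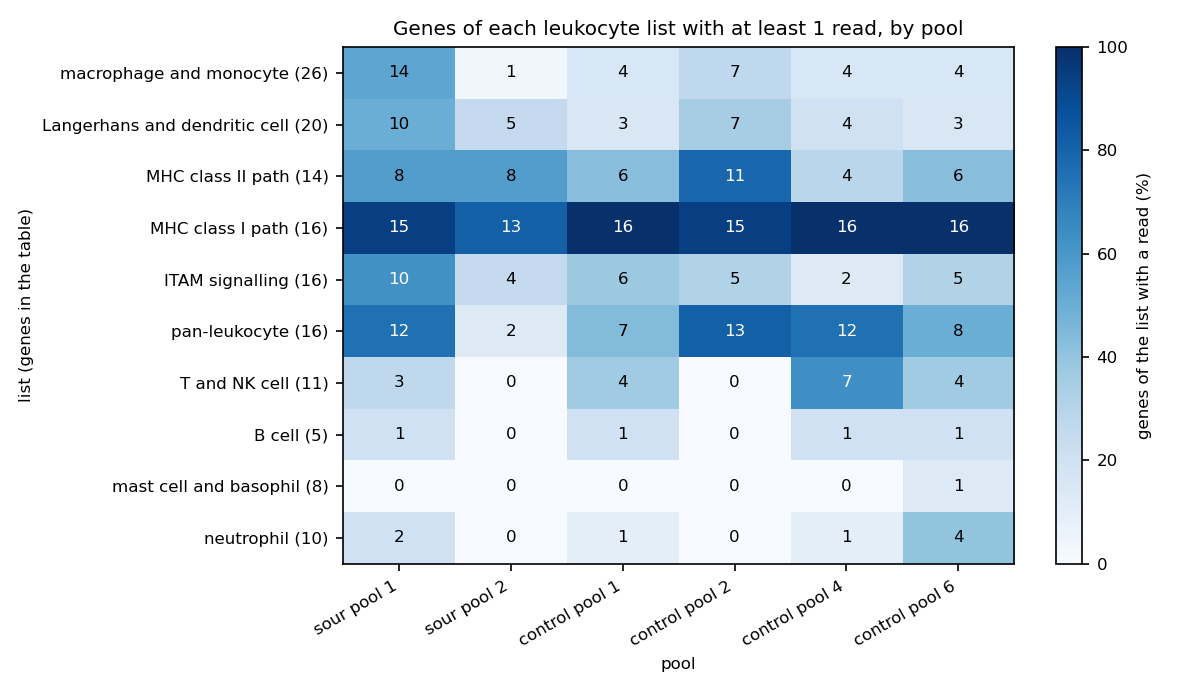
Number of genes with at least 1 read (figures in the cells; colour, percent of the genes of the list) for 10 leukocyte and antigen-presentation lists (rows, with the number of genes in the table) in each pool (columns). The macrophage list has 14 of 26 genes in sour pool 1 and 1 in sour pool 2, the class II list 11 of 14 in control pool 2, and the T and NK cell list 7 of 11 in control pool 4.

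Beyond H2-Aa, H2-Ab1 and Cd74, 14 genes of the class II path were followed. H2-Eb1, a second beta chain whose promoter is printed above, had 78 reads (205 CPM) in control pool 2, 8 in sour pool 1, 1 in sour pool 2 and none in the other control pools. H2-DMa had 6 reads in control pool 2 and 1 in sour pool 2, and H2-DMb1 had its 5 reads in control pool 2 alone. Ciita, the co-activator, had 5 reads in sour pool 1, 3 in control pool 2 and none elsewhere. So the peptide-presenting and peptide-loading genes had most of their reads in the pool with most Cd74. Between the groups 5 genes of the list could be tested by edgeR, and the 2 that rose in sour pools were lysosomal proteases that many cell types make: Ctsl had 369 ± 33.8 CPM in the sour pools (SD, n = 2) and 67.9 ± 19.1 CPM in the control pools (n = 4) (log2 fold change 2.40, SE 0.36, edgeR adjusted p = 1.5e-04), and Lgmn had 79.0 ± 21.6 and 24.4 ± 6.48 CPM (log2 fold change 1.66, SE 0.54, edgeR adjusted p = 0.0328). Rfx5, Rfxap and Ifi30 did not pass, and the median log2 fold change of the 5 was -0.08 beside -0.01 over all tested genes. The call of Lgmn was lost when sour pool 1 was left out (edgeR adjusted p = 0.336) and without sour pool 2 or control pool 1, 2 or 6 (0.0584 to 0.0745).

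Class I presentation, which nearly all cells carry out, was read in every pool, with 13 to 16 of 16 genes. Of 13 genes tested, 1 was lower in sour pools and none was higher, beside 14.4% lower and 15.0% higher among all tested genes, with a median log2 fold change of -0.43. The lower gene was the peptide transporter subunit Tap1, named after its values were seen, with 1 and 0 reads in sour and 13 to 51 reads in control pools (log2 fold change -5.13, SE 0.98, edgeR adjusted p = 0.00106). H2-K1 (348 ± 18.3 and 656 ± 320 CPM, edgeR adjusted p = 0.0984) and B2m (240 ± 53.9 and 356 ± 359 CPM, edgeR adjusted p = 0.541) did not pass. Control pool 4 was the highest pool for both, at 1133 and 893 CPM.

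Few genes of the other leukocyte lists had enough reads to test. Of the macrophage list, of which 3 of 26 genes were tested, Apoe did not pass (log2 fold change -1.77, edgeR adjusted p = 0.149), but without sour pool 1 the fit gave a log2 fold change of -8.33 (edgeR adjusted p = 3.5e-07). That fit compares 1 sour pool, with 1 Apoe read, with the 4 control pools, which alone supply the spread. Of the Langerhans and dendritic cell list 3 of 20 were tested and all 3 rose in sour pools, beside 15.0% of all tested genes, with a median of 5.86: the actin bundler Fscn1 (1451 ± 393 and 14.7 ± 5.14 CPM, edgeR adjusted p = 8.0e-08), the surface protein Cd83 (87.8 ± 25.9 and 1.31 ± 2.62 CPM, edgeR adjusted p = 4.0e-04) and the epithelial adhesion protein Epcam (2049 ± 463 and 220 ± 109 CPM, edgeR adjusted p = 2.4e-05). Cd83 had at most 2 reads and Fscn1 at most 9 in a control pool, so both passed the filter for low counts through their sour reads. Their rise was therefore largely fixed by the filter, and the 3 of 3 cannot be set against the 15.0%. Fscn1, Cd83 and Epcam are not restricted to antigen-presenting cells, and they had reads in 50, 11 and 52 of 52 single sour cells. The summed level of that list, 3597 and 3698 CPM in the sour pools and 195 to 420 CPM in the control pools, is mostly theirs, while Cd207, the defining gene of Langerhans cells, was at 0 in both sour pools.

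Of 16 ITAM signalling genes 3 were tested and 1 rose in sour pools (15.0% of all tested genes did), the phosphatase Ptpn6 (log2 fold change 2.51, edgeR adjusted p = 4.2e-04), which had a read in 33 of 52 single sour cells. The median of the 3 was -0.53. The Fc receptors Fcgr2b and Fcgr3, which signal with or against Fcer1g, had 7 and 8 reads in sour pool 1 and none in other pools. Of 16 pan-leukocyte genes 5 were tested and 1 was lower in sour pools (14.4% of all tested genes were), the adhesion receptor Cd44 (log2 fold change -5.10, edgeR adjusted p = 3.0e-05), which epithelial cells also carry. The median of the 5 was -0.34, and the list summed to 15.9 and 251 CPM in the sour pools and to 584 to 800 CPM in the control pools. Most of the control sums was Cd44, at 390 to 622 CPM. Without it, an alternative chosen after the values were seen, the list summed to 226 CPM in sour pool 1, 15.9 CPM in sour pool 2 and 45.5 to 297 CPM in the control pools, so that the groups overlapped.

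**Figure D3:**
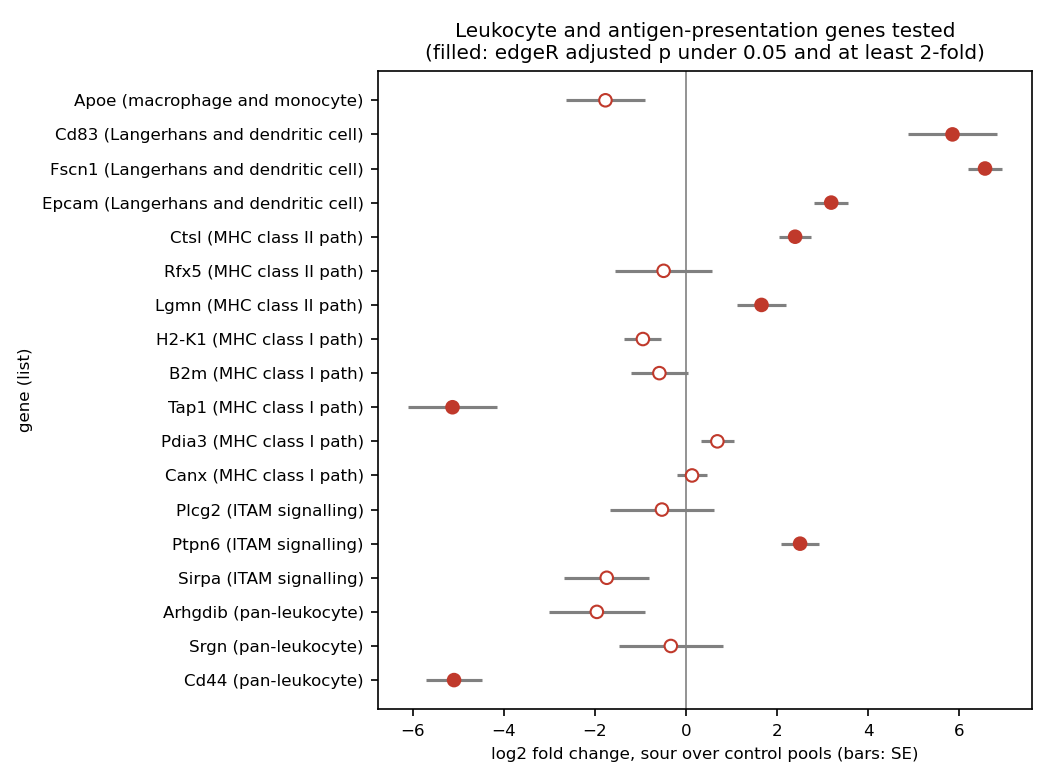
Log2 fold change between sour and control pools (horizontal axis, positive where sour pools are higher, bars SE) of the listed leukocyte and antigen-presentation genes that were tested by edgeR and are reported here. Filled points are called; Fscn1, Cd83 and Epcam lie to the right, and Tap1 and Cd44 to the left.

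No gene of the T and NK cell, B cell, mast cell, neutrophil, erythroid or growth factor lists had enough reads for a test. T and NK cell genes summed to 142 CPM in control pool 4, from 7 of 11 genes, among them Lck (13 reads), Cd3g (12) and Nkg7 (11), and to 0 to 54.6 CPM in the other pools. Cd3d, the gene of that list with the highest mean level, was instead highest in sour pool 1, at 39.7 CPM (16 reads). It had 21.4 CPM in control pool 4 and 23.3 CPM in control pool 6. Cd3e, Cd4 and Cd8a had no read in any pool. Control pool 4 had H2-Ab1 at 90.9 CPM and H2-Aa at 0. Control pool 6 had Hdc at 69.8 CPM and Il1b, an inflammatory cytokine, at 64 CPM, both with no read in the other pools, and S100a8 and S100a9 at 8.73 CPM each. Of the chemokines and growth factors that recruit or keep myeloid cells, Csf1 had 5 reads over all pools and Il34 had 3, and Ccl20, which draws Langerhans cell precursors, had 31 reads in control pool 1 and 8 in control pool 6. The B cell list had Jchain alone, with at most 3 reads in a pool. Alas2 was the 1 gene of the erythroid list with a read in a pool, with 6 and 18 reads in sour pools and 1 in control pools.

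Among single sour cells, 52 of 56 had at least 1000 genes (median 475248 reads), and all came from plate 4, so that plate and kind of library cannot be told apart. Of the 10 genes, 6 had no read in any of the 52: Lyz2, Csf1r, Tyrobp, Fcer1g, Cd207 and Ptprc. A count of 0 in 52 cells allows a share of up to 5.77% by the limit of 3 cells, or 6.85% by the exact interval, for cells with a read. No gene of the T and NK cell list or of the mast cell list was read in a cell, and 19 of the 26 macrophage genes were read in none. The exceptions on that list included Apoe (15 cells) and Ctss (2).

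The antigen presentation genes were read in some cells. H2-Ab1 had a read in 7 cells (13.5%, Clopper-Pearson 95% interval 5.59 to 25.8), Cd74 in 5 (9.62%, 3.20 to 21.03), H2-Aa in 2 (3.85%, 0.469 to 13.2) and Cd52 in 1 (1.92%, 0.0487 to 10.3). Together 10 cells (19.2%, 9.63 to 32.5) had a read of at least 1 of the 10 genes, and none had reads of more than 2. The levels reached 143 CPM for Cd74, 194 CPM for H2-Ab1 and 178 CPM for H2-Aa. Both cells with H2-Aa also had H2-Ab1, with 104 and 53 reads in one and 68 and 8 in the other, but neither had Cd74. In 3 cells Cd74 was read with H2-Ab1, with 27 and 29, 11 and 31, and 96 and 18 reads. H2-Eb1 had reads in 2 of the 10 cells.

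These 10 cells carried the genes of sour cells: Pkd2l1 and Snap25, a synaptic release gene, were read in all 10 and the proton channel gene Otop1 in 9. They also carried keratinocyte genes. The basal keratins Krt14 and Krt5 were each read in 9 of the 10, beside 28 and 24 of all 52 cells. The median of Krt4 was 2561 CPM beside 685 CPM over all 52. Dcn, listed as a fibroblast gene, was read in 7 of 10 beside 22 of 52. The fibroblast genes Lum, Col1a1, Col1a2 and Col3a1 were read in 0, 1, 2 and 1 of the 52, and the source of the Dcn reads was not tested. Keratin and Dcn reads were thus found in most cells with a member read, and their part in this result was not tested. The 10 cells had 2867 to 6467 genes each. All 52 cells, which include them, had 1049 to 6467 with a median of 4399.5, and depth was not matched. An eleventh cell, below the limit of 1000 genes with 898, had 101 reads of Cd74 (338 CPM), Snap25 at 7747 CPM and no read of Pkd2l1 or of a keratin shown.

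**Figure D4:**
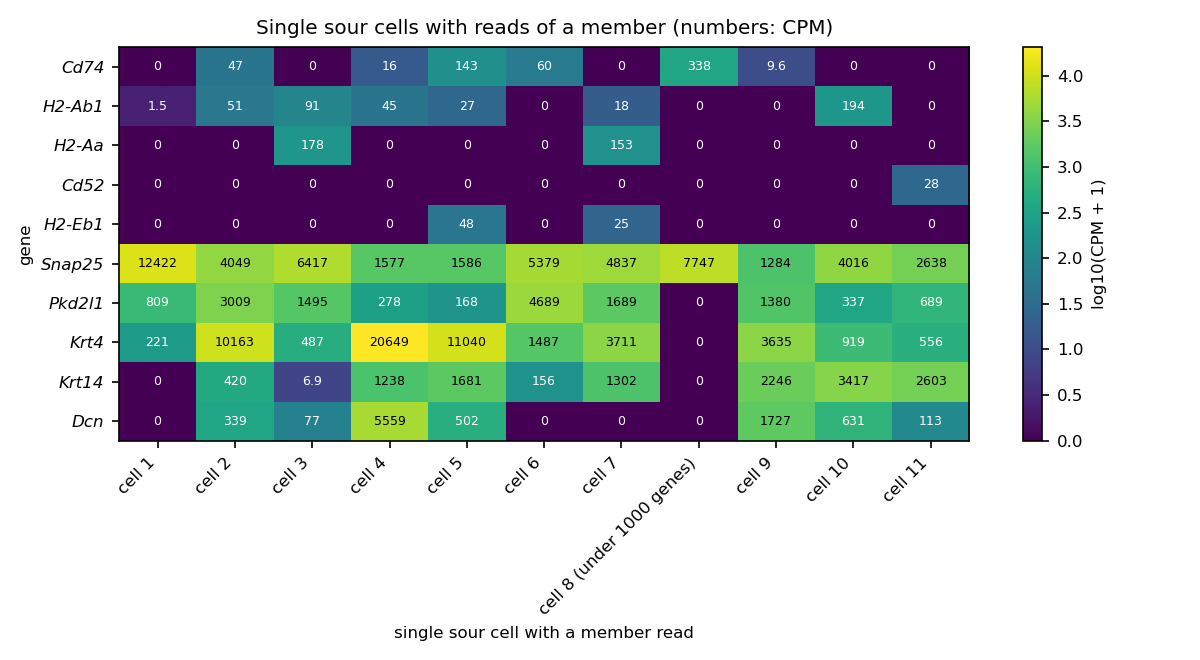
CPM (numbers, with colour for log10 of CPM + 1) in the 11 cells with a read of a member. Rows are the 4 members read in single sour cells, H2-Eb1, sour cell genes (Snap25, Pkd2l1), keratinocyte genes (Krt4, Krt14) and Dcn. Snap25 is present in all 11, and Krt14 in 9; cell 8 has 898 genes and lacks Pkd2l1 and the keratins.

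In the other tissue of the series, 454 single tdTomato+ neurons of the geniculate ganglion of P2rx3-tdTomato mice, sequenced by CEL-Seq, 85 neurons (18.7%, 15.2 to 22.6) had a read of at least 1 of the 10 genes. H2-Ab1 was again the most widely read, in 32 neurons (7.05%), followed by H2-Aa in 22 (4.85%). Lyz2, Csf1r and Tyrobp, which had no read in the 52 single sour cells, were read in 5, 5 and 7 neurons (1.10%, 1.10% and 1.54%). These shares lie within the interval of up to 6.85% for 0 in 52 cells. The assay and the reads per cell also differ, so no difference was tested. Cd207 had none in 454, which allows a share of up to 0.661% by the limit of 3 neurons, or 0.809% by the exact interval.

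Genes outside the lists whose log2(CPM + 1) over the 6 pools was most like that of 3 members were found among 6687 genes with at least 50 CPM in some pool. For Lyz2 they were Gpcpd1 (Pearson r = 0.991), Helq, Paxbp1 and Btg2 (r = 0.953). For H2-Ab1 they were Pld2 (r = 0.986), Ccdc12, Eef1e1, Mfge8 (r = 0.978) and Tinagl1. For Cd207 they were Tle3 (r = 0.960), Cyp2t4 (r = 0.947), Arpp19, Anapc5 and Bcl11a. With 6 pools and a single high pool for Lyz2 and Cd207, such coefficients are a description of a shape. All of these genes but Cyp2t4 had reads in all 6 pools, and Cyp2t4 had 26 of its 28 reads in control pool 2.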

How the data were processed

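RNA was measured in sorted tongue cells and in picked ganglion neurons, and the deposited tables hold raw read counts per gene symbol, unnormalized. STAR, HTSeq and the build GRCm38 (mm10) are named, without version, setting or strand, per the submitters' processing notes. Left out were date-like symbols (27, at most 3.10% of a library), 92 spike-in lines, 3 reporter lines and the summary lines. CPM and RPKM (union exon length, GENCODE M21) were computed from the counts in Python 3.11.15. Sour and control pools were compared over all genes with edgeR 4.0.16 (TMM, filter for low counts by group, R 4.3.3); calls needed a Benjamini-Hochberg adjusted p under 0.05 and a 2-fold change. p-values measure only the spread between these libraries, and intervals cover counting error only, since reads are not unique molecules. Of the 10 members 3 passed the filter and none was tested. Members and lists were chosen with earlier results of these data known. Named were the members, up to 4 genes per list by mean CPM, and the 5 genes most like each of 3 members. Some genes that this rule names are not reported here. Of the listed genes, 4 were found under older symbols. On counts simulated for this comparison (7126 genes tested), genes were counted at adjusted p under 0.05 alone, without the 2-fold limit. The fit found 166 of 200 genes changed 8-fold, in the right direction, and 6 of 6931 unchanged genes. Every simulated gene had the same spread between libraries, and only genes with many reads were changed. The simulation thus does not cover genes such as Lyz2 or Apoe, which differed widely between the sour pools. Alternatives were DESeq2 1.42.0, other scalings, no filter, left-out pools and a plate block.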

Additional observations from a re-analysis of the deposited data

Results flagged for a closer look

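In 19 of 48 genes examined, 1 control pool stood apart from the other 3 beyond Dixon's 95% limit for 4 pools. The limit is meant to flag about 1 in 20 groups by chance, but a gene at 0 in 3 pools always passes it, even with 1 read. The 19 genes are therefore a description and cannot be set against that rate. For Cd74, H2-Ab1, H2-Aa, Csf1r and Cd207 the limit is no test, because these genes were selected on their reads in the same pools, and their values are a description.

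Control pool 2 was the highest for 8. Cd74 was at 706 CPM there, beside at most 2.67 CPM in another control pool, and H2-Ab1 was at 606 CPM, beside at most 90.9 CPM. H2-Aa had 226 CPM, H2-Eb1 205 CPM, Csf1r 81.4 CPM and Cd207 26.2 CPM, with no read in the other control pools. C1qb was at 13.1 CPM and Cd83 at 5.25 CPM.

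Control pool 4 was the highest for 6. The class I genes H2-K1 and B2m were at 1133 and 893 CPM, beside at most 539 and 206 CPM, and Epcam was at 382 CPM. The lymphocyte genes Lck and Nkg7 were at 34.7 and 29.4 CPM. Alas2 was at 2.67 CPM, which is 1 read.

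Control pool 6 was the highest for 5. Hdc was at 69.8 CPM and Il1b at 64 CPM. S100a8 was at 8.73 CPM, S100a9 was at 8.73 CPM and Csf3r at 2.91 CPM, which is 1 read.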

How the results depend on the processing

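Over all genes, edgeR called 1158 higher and 1113 lower in sour pools. Under DESeq2, other size factors, no filter or the plate block these counts stayed within 1.5 times. Leaving out each pool in turn gave 638 to 1290 higher and 761 to 1215 lower, with 638 higher without sour pool 1. That fit leaves sour pool 2 alone in its group, with 188503 gene reads beside 403166 in sour pool 1. The cause of the lower count was not tested. The replicate block over plates 1 and 3 gave 1236 higher and 1163 lower; the deviations of the same-plate pairs had correlations of 0.15 and 0.11 on plate 1 and -0.12 on plate 3. With 2 sour pools their deviations mirror each other, so these values do not show whether plates pair the pools.

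Of 184 values of 19 listed genes under alternatives, 173 kept their call. The 6 lost calls were all Lgmn, with edgeR adjusted p of 0.0565 with no filter and 0.0584 to 0.336 without 1 pool. The 5 gained calls were Apoe with no filter (adjusted p = 1.9e-05) and without sour pool 1 (log2 fold change -8.33, adjusted p = 3.5e-07), H2-K1 with no filter (adjusted p = 0.0403), and Pdia3 without control pool 4 (adjusted p = 0.0184) and under the plate block (adjusted p = 0.0303). The members' highest pools were the same under both other denominators. For the pan-leukocyte sum, the lowest control pool minus the highest sour pool was 334 CPM, and -180.2 CPM without Cd44, an alternative chosen after seeing the data. The share of ganglion neurons with a read of any member was 12.8% at 2 or more reads. With 2 sour pools, 1 of them at 0 for 9 of the 10 members, depth limits what can be said of genes under about 16 CPM.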

Other observations

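Some genes known from leukocytes or endothelium were read in both sour pools, including sour pool 2, in which the 10 members had 1 read in all. Irf8, a transcription factor of dendritic cells, had 8 and 6 reads in the sour pools, none in the control pools, and a read in 4 of 52 single sour cells. Vwf, an endothelial clotting factor, had 211 and 74 reads in the sour pools and at most 4 in a control pool, with a read in 43 of 52 cells, while the endothelial gene Pecam1 had none in sour pools and cells. Vav1, a signalling protein of blood cells, had 23 and 2 reads in the sour pools, 2 in control pool 2, and a read in 2 of 52 cells.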
